A study of Homo sapiens with 145 samples.

Results

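MYCT1, SPANXC, IL13RA2 and NMRAL2P are 4 of the 12070 genes tested in the human fibrosarcoma line HT-1080, an established cell line, after exposure to methyl methanesulfonate (MMS), etoposide (ETP) or quercetin (QUE). They were chosen by their difference between MMS 500 µM and the MMS vehicle, so that difference is a description here and carries no test. On that difference MYCT1 ranked 2, SPANXC 5, NMRAL2P 6 and IL13RA2 7 of the 12070 genes. The smallest of the 4 was 4.02 on the log2 scale (IL13RA2), and the next gene in order, BMP2, was at 3.97. The 4 genes have 5 probe sets of their own, and each gene is shown through its brightest one, averaged over the 145 arrays. All 4 genes passed the filter on low values, a log2 value of at least 4 in at least 5 arrays. Of the 145 arrays, 33 reached 4 for MYCT1, 44 for IL13RA2, 79 for NMRAL2P and 145 for SPANXC.

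The dosed groups were MMS at 1, 3, 10, 30, 100, 300 and 500 µM, ETP at 0.003, 0.01, 0.03, 0.1, 0.3, 1 and 3 µM, and QUE at 1, 3, 10, 30, 60, 80 and 100 µM, each for 24 h. Each chemical had its own vehicle group, and dosed and vehicle cells alike received DMSO in complete serum medium. MMS is an alkylating agent, ETP poisons topoisomerase II so that DNA breaks persist, and QUE is a plant flavonol. MMS groups held 6 replicates, or 5 at 500 µM, and the ETP and QUE groups used here held 5. Nothing in the labels ties a replicate number to a culture of its own, so p-values measure only the spread between these samples. All groups are of 1 cell line, and in such bulk samples fewer cells of a kind and less RNA per cell cannot be told apart.

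MYCT1 (MYC target 1) encodes a MYC-responsive protein best known from endothelial and blood stem cells. SPANXC is one of a family of X-linked genes for sperm proteins associated with the nucleus, which are largely silent outside the testis and reappear in some tumours, as cancer-testis genes do. IL13RA2 encodes a receptor chain that binds interleukin 13 tightly and has a short cytoplasmic tail. It is described as a decoy beside the signalling pair IL13RA1 and IL4R, and tumours of several kinds carry it. NMRAL2P is a transcribed pseudogene of the NmrA-like redox sensor NMRAL1, and its RNA is known as a target of NRF2, the transcription factor of the antioxidant response.

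In the RefSeq annotation of GRCh38.p14, MYCT1 lies at chr6:152697897-152747181 and NMRAL2P at chr3:185959943-185980877. IL13RA2 at chrX:115003982-115017616 and SPANXC at chrX:141241463-141242517 share a chromosome. The sequences before the annotated gene starts of MYCT1 (201 bases, plus strand, chr6:152697696-152697896), SPANXC (250 bases, minus strand, chrX:141242518-141242767), SPANXA1 (250 bases, minus strand, chrX:141584739-141584988) and SPANXB1 (250 bases, plus strand, chrX:141002344-141002593) are shown. They lie before the genes, so they say nothing of which transcripts the SPANX probe sets match. Capitals mark TATAAA in MYCT1 and matches to CCAAT or TGACNNNGC, both on the opposite strand, in the SPANX genes.
MYCT1: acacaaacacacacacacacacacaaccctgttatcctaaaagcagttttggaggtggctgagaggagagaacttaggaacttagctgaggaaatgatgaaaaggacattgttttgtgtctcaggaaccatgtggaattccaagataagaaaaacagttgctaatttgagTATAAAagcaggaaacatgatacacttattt
SPANXC: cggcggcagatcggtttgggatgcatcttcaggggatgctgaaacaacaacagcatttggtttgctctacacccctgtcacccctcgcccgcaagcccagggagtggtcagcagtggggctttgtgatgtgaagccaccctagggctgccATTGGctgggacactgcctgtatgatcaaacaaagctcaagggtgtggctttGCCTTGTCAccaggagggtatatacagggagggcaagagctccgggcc
SPANXA1: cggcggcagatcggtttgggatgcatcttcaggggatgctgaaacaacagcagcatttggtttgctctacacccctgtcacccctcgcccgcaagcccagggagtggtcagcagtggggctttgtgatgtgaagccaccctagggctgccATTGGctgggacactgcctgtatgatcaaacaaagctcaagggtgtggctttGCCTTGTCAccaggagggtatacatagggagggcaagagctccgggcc
SPANXB1: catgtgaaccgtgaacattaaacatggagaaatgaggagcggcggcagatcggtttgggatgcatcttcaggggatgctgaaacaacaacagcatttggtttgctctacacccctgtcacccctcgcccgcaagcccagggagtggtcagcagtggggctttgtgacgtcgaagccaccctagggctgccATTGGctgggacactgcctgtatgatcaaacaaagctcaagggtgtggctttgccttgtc
The TATAAA of MYCT1 began 31 bases before the annotated gene start, and 10.7% of 35116 RefSeq promoters held these letters within the 250 bases before their start. SPANXC and SPANXA1 differed at 3 of 250 aligned bases. SPANXC and SPANXB1 shared a stretch of 210 aligned bases in which 209 were identical, and SPANXB1 held an extra base within it. The SPANXB1 window ended earlier in the shared sequence. The antioxidant response element letters TGACNNNGC stood 48 bases before the starts of SPANXC and SPANXA1 and in 10.9% of all promoters, and CCAAT in 32.0%. The SPANXB1 window ended inside the stretch that matched these letters in SPANXC, so the same match could not be found there. The other letters searched on both strands were the AP-1 site TGANTCA (6.57% of promoters), the cAMP response element TGACGTCA (1.65%), the E-box CACGTG (6.34%), the heat shock element GAANNTTC (5.78%), the STAT site TTCNNNGAA (6.57%), the GC box GGGCGG (42.6%) and the CARE TTGCNTCA (2.77%). None of these was in the 4 windows shown, which says nothing of the factors that bind them.

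The median log2 signal of an array lay within 3.08 and 3.17 in MMS, within 3.51 and 3.59 in ETP and within 3.33 and 3.41 in QUE, so levels are compared only within a chemical. Array signal has no read depth, and the number of arrays limits the precision. A log2 value under 4 was taken as not above background, and the size of a difference from such a level is uncertain. Of the mesenchymal markers 8 of 10 were at 4 or above in MMS vehicle cells, led by VIM, while 0 of 8 epithelial, 0 of 7 blood and 0 of 17 male germ cell markers on the array were. Endothelial markers at 4 or above were ECSCR, ROBO4, TIE1, FLT1 and NOS3, 5 of 18. The 16 arrays of ETP and QUE with the number 2 were left out, since at the highest dose they moved like the other chemical. Across 12070 genes, the difference of ETP 3 µM number 2 from its vehicle array correlated at 0.902 with the QUE 100 µM difference of the other numbers and at 0.304 with that of ETP 3 µM. For QUE 100 µM number 2 the same measure was 0.890 against the other numbers of ETP 3 µM and 0.387 against those of QUE 100 µM. The other 5 numbers of ETP correlated at 0.797 to 0.904 with their own chemical and those of QUE at 0.546 to 0.927, number 3 being lowest, and at 0.327 to 0.441 with the other chemical. The cause was not tested, and no label was changed. Values with these arrays, given beside the results that change, thus mix arrays of both kinds of response.

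All 4 genes were higher at MMS 500 µM than in the MMS vehicle, with no overlap between the groups. MYCT1 had log2 values of 8.92, 7.96, 8.88, 8.25 and 9.32 at 500 µM, against 2.33, 2.44, 2.33, 2.79, 2.69 and 2.31 in the vehicle. Every vehicle value was under 4, and the difference was 6.19 (72.8-fold). SPANXC had 9.19, 8.98, 8.81, 9.88 and 9.52 at 500 µM, against 4.72, 4.87, 4.87, 4.47, 4.87 and 4.55 in the vehicle, a difference of 4.55 (23.4-fold). It was the only one of the 4 with vehicle values at or above 4 in MMS. NMRAL2P had 7.82, 7.66, 7.57, 7.60 and 7.31 at 500 µM, against 3.37, 3.37, 3.13, 3.60, 3.64 and 3.50 in the vehicle, a difference of 4.16 (17.8-fold). IL13RA2 had 6.97, 6.67, 6.07, 8.51 and 7.35 at 500 µM, against 2.90, 2.96, 3.12, 2.90, 3.29 and 3.36 in the vehicle, a difference of 4.02 (16.3-fold). The 500 µM replicates of NMRAL2P lay closest together (SD 0.183, n = 5) and those of IL13RA2 farthest apart (SD 0.908, n = 5). In this contrast 17.7% of all genes were called higher and 16.9% lower, and 6 of the 9 mesenchymal markers measured were among the lower ones, whose part in these values was not tested.

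**Figure D1:**
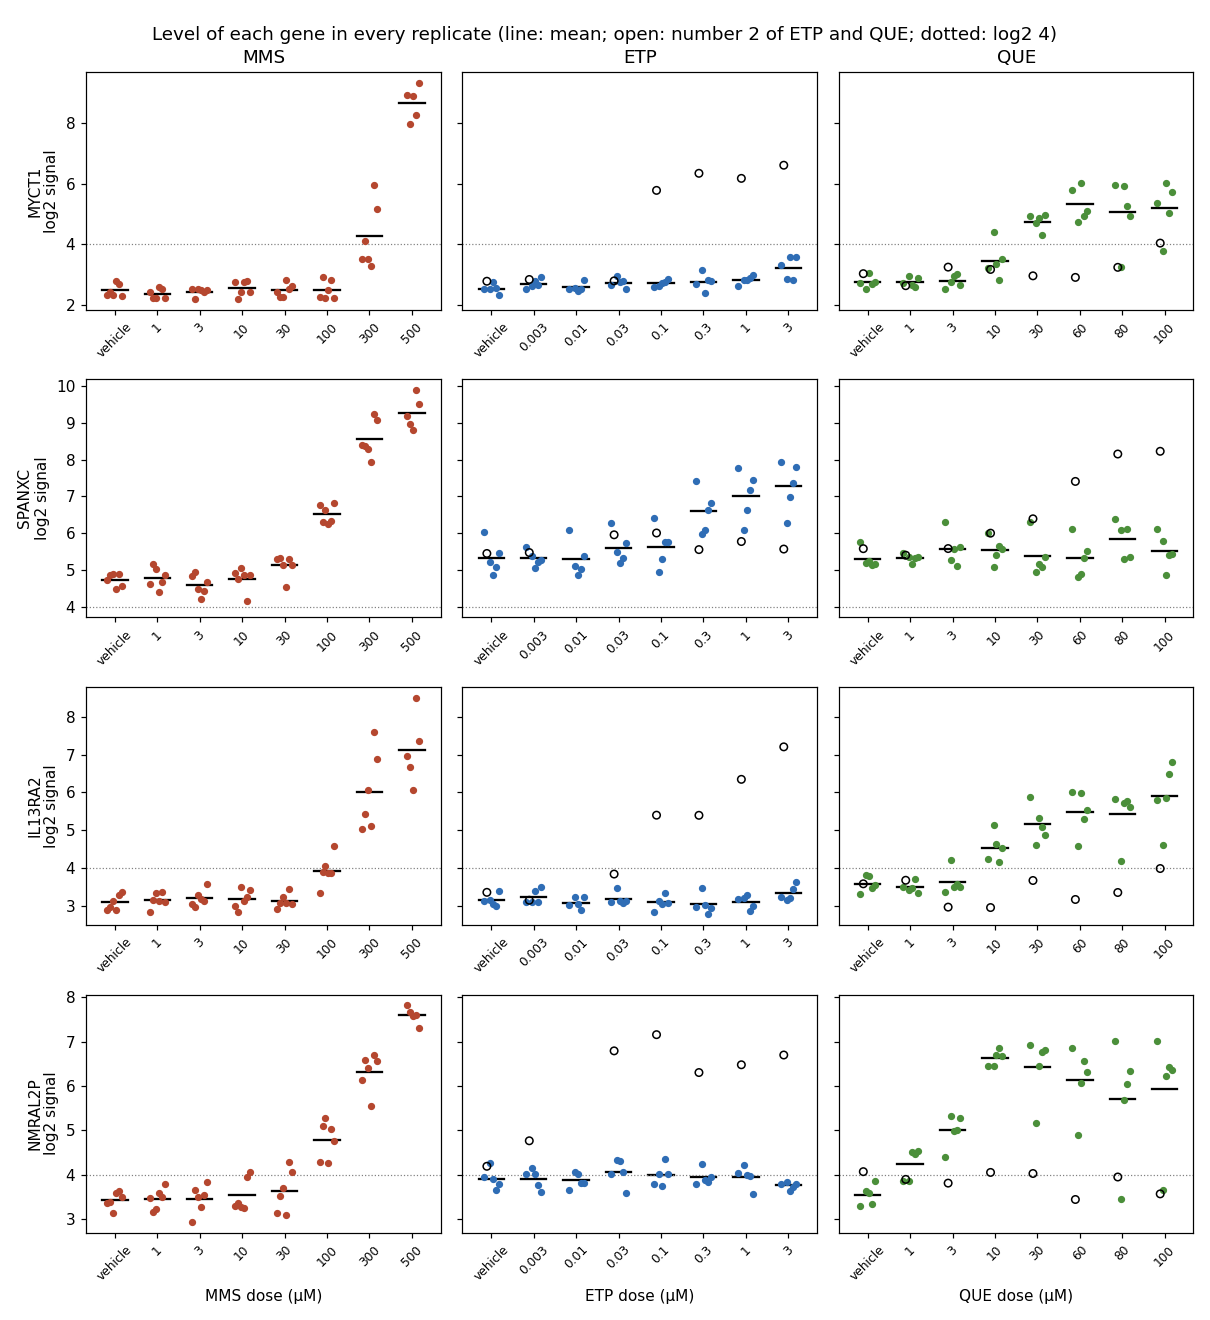
Log2 signal of each gene (rows) in every replicate against dose in µM (dose steps evenly spaced) for MMS, ETP and QUE (columns), with a line at the mean of the replicates used, open circles for the left-out number 2 arrays and a dotted line at log2 4. MYCT1 stays under 3 up to MMS 100 µM, while SPANXC and NMRAL2P leave their vehicle range at 100 µM.

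All 4 genes were highest at MMS 500 µM, but the first dose at which they lay above every vehicle array differed. SPANXC and NMRAL2P first lay above every vehicle array at 100 µM, and MYCT1 and IL13RA2 at 300 µM. At 300 µM the difference from the vehicle was 84.0% of the 500 µM difference for SPANXC, 72.8% for IL13RA2 and 69.4% for NMRAL2P on the log2 scale, but 28.8% for MYCT1. At 100 µM it was 39.3% for SPANXC, 32.5% for NMRAL2P, 21.0% for IL13RA2 and 0.241% for MYCT1. Below 100 µM no difference of the 4 from the vehicle exceeded 0.39, which SPANXC had at 30 µM.

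**Figure D2:**
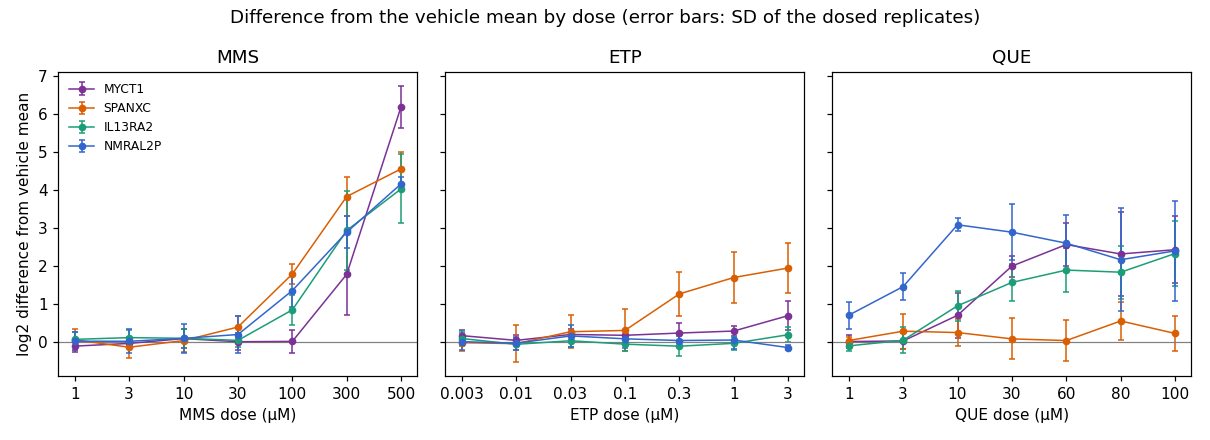
Difference of each dose group's mean from the vehicle mean of its chemical (log2, vertical axis) against dose in µM (horizontal axis, dose steps evenly spaced), with the SD of the dosed replicates as error bars. MYCT1 has the lowest difference of the 4 at MMS 300 µM (1.78) and the highest at 500 µM (6.19), SPANXC alone passes 1 in ETP, and NMRAL2P is highest at QUE 10 µM (3.08).

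The difference by which the genes were chosen did not use the MMS arrays at 1 to 300 µM. The MMS doses were therefore tested against MMS 1 µM in place of the vehicle with limma, over all 12070 genes. Earlier results of these data were known when genes and tests were chosen, so these tests are not fully independent of the choice. The filter and the choice of probe set also used all arrays, high doses included. The dimmer MYCT1 probe set averaged 2.30 at MMS 1 µM and 2.51 at 300 µM. A gene was called at a Benjamini-Hochberg adjusted p under 0.05 and at least 1.5-fold. At MMS 300 µM all 4 were called higher than at 1 µM, where 4.13% of all genes were. SPANXC had 8.40, 8.38, 8.27, 7.93, 9.23 and 9.08 at 300 µM, against 4.60, 5.15, 5.01, 4.40, 4.68 and 4.86 at 1 µM. The difference was 3.77 (SE 0.184, adjusted p = 1.81e-17), with no overlap. NMRAL2P had 6.13, 6.58, 6.41, 5.54, 6.69 and 6.57 at 300 µM, against 3.48, 3.15, 3.23, 3.59, 3.49 and 3.80 at 1 µM, and differed by 2.86 (SE 0.213, adjusted p = 1.39e-12). All of its 1 µM values were under 4 and all of its 300 µM values above 5. IL13RA2 had 5.03, 5.44, 6.07, 5.11, 7.60 and 6.87 at 300 µM, against 2.85, 3.16, 3.35, 3.12, 3.38 and 3.10 at 1 µM, and differed by 2.86 (SE 0.265, adjusted p = 1.93e-10). MYCT1 had 3.52, 4.10, 3.51, 3.30, 5.96 and 5.17 at 300 µM, against 2.43, 2.23, 2.22, 2.58, 2.53 and 2.24 at 1 µM, and differed by 1.89 (SE 0.263, adjusted p = 6.25e-07). Only 3 of its 6 values at 300 µM reached 4, those of numbers 2, 5 and 6. Numbers 5 and 6 were the highest 2 at 300 µM for MYCT1, IL13RA2 and SPANXC. For NMRAL2P number 5 was highest, before numbers 2 and 6.

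At MMS 100 µM against 1 µM, 0.389% of all genes were called higher, and SPANXC and NMRAL2P were among them. SPANXC had 6.77, 6.31, 6.63, 6.24, 6.33 and 6.81 at 100 µM and was higher by 1.73 (SE 0.184, adjusted p = 8.22e-08). NMRAL2P had 4.28, 5.11, 5.27, 4.26, 5.04 and 4.77 at 100 µM and was higher by 1.33 (SE 0.213, adjusted p = 1.13e-04). IL13RA2 had 3.34, 3.89, 4.06, 3.87, 3.87 and 4.58 at 100 µM. Its difference of 0.78 (SE 0.265, adjusted p = 0.0998) was not called, although it was with the replicate number as a block (adjusted p = 0.00762) and without replicate 5 (0.83, adjusted p = 0.0292). MYCT1 differed by 0.12 (95% interval -0.41 to 0.66). From 100 to 300 µM all 4 were called higher, where 0.978% of genes were, IL13RA2 by 2.09 (adjusted p = 1.48e-06), SPANXC by 2.04 (adjusted p = 9.94e-10), MYCT1 by 1.76 (adjusted p = 1.68e-05) and NMRAL2P by 1.53 (adjusted p = 5.35e-06). At 3, 10 and 30 µM against 1 µM, 0% of genes were called higher. The largest of the 12 differences of the 4 genes was 0.34 (SPANXC at 30 µM, unadjusted p = 0.0756), and 0 of the 12 had an unadjusted p under 0.05.

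In ETP, SPANXC was called higher from 0.3 µM and MYCT1 at 3 µM, while IL13RA2 and NMRAL2P were called at no dose. The values in SPANXC at 3 µM were 7.92, 6.28, 6.99, 7.36 and 7.81, against 6.02, 5.22, 4.85, 5.09 and 5.46 in the ETP vehicle. The difference was 1.94 (SE 0.315, adjusted p = 4.82e-06), and every 3 µM array was above every vehicle array. At 1 µM the difference was 1.69 (adjusted p = 6.53e-05) and again the groups did not overlap. At 0.3 µM it was 1.26 (adjusted p = 0.00368), with values of 5.98 to 7.42 that overlapped the vehicle, and without replicate 5 it was not called (1.19, adjusted p = 0.0504). Same-numbered ETP arrays deviate together, and each 0.3 µM array was above the vehicle array of its own number, by 0.76 to 1.54. With the replicate number as a block the adjusted p was 1.01e-08. At 0.1 and 0.03 µM the differences were 0.30 and 0.27, and neither was called (adjusted p = 0.582 and 0.727). Of all genes, 0% were called higher at 0.003 and 0.01 µM. That share was 0.365% at 0.03 µM, 1.38% at 0.1 µM and 3.02% at 0.3 µM, and then 5.17% at 1 µM and 6.25% at the highest dose. Number 1 had the highest SPANXC value at every ETP dose and in the vehicle.

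MYCT1 in ETP had 3.31, 2.85, 3.59, 2.81 and 3.59 at 3 µM, against 2.54, 2.52, 2.75, 2.55 and 2.34 in the vehicle. The groups did not overlap and the difference of 0.69 (SE 0.127, adjusted p = 3.32e-05) was called, but every value was under 4. It fell under 1.5-fold with quantile normalization over the ETP arrays used (0.58), with the mean of both MYCT1 probe sets (0.37) and without replicate 6 (0.55). With the number 2 arrays included it was not called (1.21, adjusted p = 0.0853). IL13RA2 lay between 3.15 and 3.64 at ETP 3 µM, against 2.98 to 3.40 in the vehicle, and NMRAL2P between 3.64 and 3.84, against 3.65 to 4.25. Neither was called at any ETP dose. At 3 µM the 95% interval of the difference was -0.05 to 0.43 for IL13RA2 and -0.42 to 0.13 for NMRAL2P.

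In QUE, NMRAL2P, IL13RA2 and MYCT1 were called higher and SPANXC was not called at any dose. NMRAL2P was called from 10 µM and the other 2 from 30 µM. The 5 values of NMRAL2P at 10 µM were 6.46, 6.44, 6.69, 6.85 and 6.67, against 3.30, 3.63, 3.57, 3.34 and 3.86 in the QUE vehicle. All vehicle values were under 4, and the difference was 3.08 (SE 0.475, adjusted p = 8.32e-05), where 1.11% of genes were called higher. At 3 µM NMRAL2P had 4.40, 5.32, 4.98, 5.01 and 5.27, all above the vehicle arrays. Its difference of 1.46 was not called (unadjusted p = 0.00413, adjusted p = 0.554), but it was without replicate 3 (1.40, adjusted p = 0.00231). At 1 µM its difference was 0.70 (adjusted p = 1), where 0.00829% of genes were called higher, and at 3 µM that share was 0.0249%. From 30 to 100 µM the difference was 2.88, 2.60, 2.16 and 2.39, each called. The mean was highest at 10 µM with all 5 numbers, and whether the higher doses differ from it was not tested. Without replicate 3 it was highest at 30 µM, and the differences from 10 to 100 µM were 3.15, 3.23, 2.93, 2.75 and 2.99.

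The array with number 3 went its own way for NMRAL2P. It held 6.44 at 10 µM, then 5.16 at 30 µM and 4.90 at 60 µM. Its last values were 3.44 at 80 µM and 3.65 at 100 µM, so that at 80 and 100 µM it lay within the vehicle range. The other 4 numbers stayed between 5.69 and 7.01 at those 2 doses. Number 3 was also lowest for IL13RA2 and MYCT1 at 60, 80 and 100 µM. It held 4.18 for IL13RA2 and 3.26 for MYCT1 at 80 µM, where the other numbers held 5.61 to 5.82 and 4.93 to 5.96. All calls of these 3 genes at 30 to 100 µM were also made without replicate 3.

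MYCT1 was called higher from QUE 30 µM, where its values were 4.94, 4.69, 4.86, 4.30 and 4.96, against 2.74, 2.53, 3.06, 2.68 and 2.77 in the vehicle. The difference was 1.99 (SE 0.358, adjusted p = 4.17e-05), and 8.4% of genes were called higher there. For 60, 80 and 100 µM it was 2.56 (adjusted p = 4.30e-07), 2.31 (adjusted p = 2.69e-06) and 2.42 (adjusted p = 9.49e-07), with 12.7%, 11.4% and 13.1% of genes called higher. MYCT1 at 100 µM had 5.36, 3.77, 6.03, 5.01 and 5.73, all above the vehicle arrays. At 10 µM it differed by 0.70 (adjusted p = 0.346), with 1 of 5 values at or above 4.

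IL13RA2 first lay above every vehicle array at QUE 10 µM, with 4.24, 5.15, 4.62, 4.15 and 4.54, against 3.31, 3.81, 3.80, 3.47 and 3.56 in the vehicle. That difference of 0.95 was not called (adjusted p = 0.0783), but it was with the replicate number as a block (adjusted p = 0.0419), with quantile normalization (adjusted p = 0.0377) and without replicate 3 (0.85, adjusted p = 0.00844). At 30 µM IL13RA2 was higher by 1.56 (SE 0.311, adjusted p = 1.58e-04). The next 2 doses gave 1.89 and 1.83, and 100 µM gave 2.32 (adjusted p = 1.69e-07). Its 100 µM values were 5.79, 4.62, 5.85, 6.49 and 6.81, and the groups did not overlap at any dose from 10 µM. SPANXC at QUE 100 µM had 6.12, 5.78, 4.85, 5.41 and 5.43, against 5.75, 5.17, 5.24, 5.14 and 5.16 in the vehicle, and the groups overlapped. Its difference was 0.22 (95% interval -0.30 to 0.75) at 100 µM and 0.55 (adjusted p = 0.0793) at 80 µM. Among the alternatives, that at 80 µM was called only with quantile normalization (0.62, adjusted p = 0.0429). With the replicate number as a block limma gave an adjusted p of 0.00707 at 80 µM, but the difference was under 1.5-fold.

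The differences between chemicals were tested as contrasts of contrasts in 1 limma fit, with MMS 300 µM against 1 µM, ETP 3 µM against vehicle and QUE 100 µM against vehicle. The doses are not matched in potency, so these are comparisons of the doses used. The ETP response minus the QUE response was 1.72 for SPANXC (SE 0.383, adjusted p = 1.74e-04), called higher in ETP, as were 12.7% of genes. It was -2.54 for NMRAL2P (adjusted p = 4.55e-06), -2.13 for IL13RA2 (adjusted p = 1.88e-06) and -1.73 for MYCT1 (adjusted p = 2.95e-04), all called lower in ETP, as were 10.7% of genes. With the number 2 arrays included all 4 kept their direction and none was called, at 1.01, -1.62, -1.20 and -0.98 in the same order of genes (adjusted p = 0.207, 0.180, 0.240 and 0.366).

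The MMS response was larger than the ETP response for all 4 genes, where 5.79% of all genes were called. The difference was 3.01 for NMRAL2P (adjusted p = 7.51e-08), 2.67 for IL13RA2 (adjusted p = 5.09e-09), 1.82 for SPANXC (adjusted p = 8.93e-05) and 1.20 for MYCT1 (adjusted p = 0.0154). The MYCT1 call was lost without replicate 5 (0.78, adjusted p = 0.197), without replicate 6 (1.13, adjusted p = 0.0877) and with the number 2 arrays included (0.68, adjusted p = 0.531). The MMS response minus the QUE response was 3.54 for SPANXC (SE 0.367, adjusted p = 1.59e-13), where 12.2% of genes were called higher and 12.6% lower. It was not called for the others, being -0.54 for MYCT1 (95% interval -1.30 to 0.23), 0.54 for IL13RA2 (-0.16 to 1.24) and 0.47 for NMRAL2P (-0.40 to 1.34).

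At the highest doses, the left-out number 2 arrays lay outside the range of the other numbers for the 4 genes. The exception was MYCT1 at the label QUE 100 µM, where the other numbers held 3.77 to 6.03. At the label ETP 3 µM number 2, MYCT1 was at 6.60, IL13RA2 at 7.21 and NMRAL2P at 6.70, against 2.81 to 3.59, 3.15 to 3.64 and 3.64 to 3.84 in the other numbers, while SPANXC was at 5.56, below their range of 6.28 to 7.92. At the label QUE 100 µM number 2, SPANXC was at 8.22, above the other numbers (4.85 to 6.12). There MYCT1 was at 4.04, IL13RA2 at 3.99 and NMRAL2P at 3.57, the last 2 below all other numbers of that dose. Under the label ETP, NMRAL2P in number 2 was already at 6.79 at 0.03 µM. Under the label QUE, SPANXC in number 2 was at 7.40 at 60 µM and 8.15 at 80 µM.

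The SPANXC values cannot be assigned to SPANXC alone. The x in its probe set name marks, in the maker's naming, probes that may match other sequences. A probe set listed for SPANXA1, SPANXA2, SPANXB1 and SPANXC averaged 5.04 ± 0.228 in the MMS vehicle (SD, n = 6), 9.34 ± 0.506 at 300 µM (SD, n = 6) and 10.1 ± 0.268 at 500 µM (SD, n = 5). One listed for SPANXA1 and SPANXA2 averaged 4.77, 9.09 and 9.89 in those groups. At ETP 3 µM they were 2.59 and 2.26 above the vehicle, and at QUE 100 µM 0.53 and 0.48. Both thus ordered these groups as SPANXC did, and no gene is named from them. At MMS 30 µM, however, all values of both already lay above their vehicle arrays, with differences of 0.73 and 0.70. The SPANXC probe set differed by 0.39 there and overlapped its vehicle. The probe set of SPANXB1 alone had 4.94, 4.78, 3.98, 5.04 and 5.40 at MMS 500 µM, against 2.80 to 3.05 in the vehicle. It was called higher at MMS 300 µM against 1 µM (1.23, SE 0.191, adjusted p = 4.27e-06), with 3 of 6 values at or above 4, and stayed under 4 in all ETP and QUE groups named here.

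**Figure D3:**
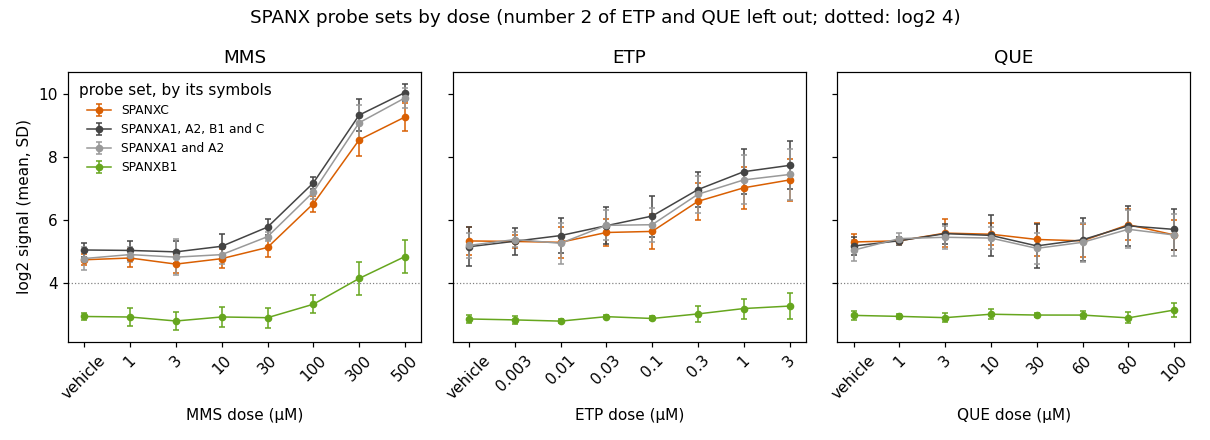
Mean log2 signal with SD of 4 SPANX probe sets, named by their listed symbols, against dose in µM for MMS, ETP and QUE (number 2 of ETP and QUE left out, dotted line at log2 4). The SPANXC probe set and those 2 with several symbols run together in all 3 chemicals, and SPANXB1 reaches 4 only at MMS 300 and 500 µM.

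The other MYCT1 probe set was far dimmer. It held 4.56, 3.72, 4.62, 4.20 and 5.02 at MMS 500 µM, against 2.19 to 2.78 in the vehicle, and 2.25 to 2.71 at 300 µM. Its difference from the vehicle was 2.05 at 500 µM, where the chosen probe set had 6.19. At QUE 60 µM it was 0.60 above the vehicle, with all values under 4.

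Of the 16 X-linked cancer-testis genes measured, SPANXC apart, 3 were called higher and 0 lower at MMS 300 µM against 1 µM. They were SPANXB1, PAGE1 (1.20, adjusted p = 2.09e-09) and SAGE1 (0.68, adjusted p = 1.93e-04). The median of the 16 was 0.23, against 0.02 over all genes, of which 4.13% were higher and 7.97% lower. At MMS 500 µM against vehicle 6 were higher and SSX3 was lower (-1.33), where 17.7% of all genes were higher and 16.9% lower. At ETP 3 µM and QUE 100 µM, limma called 0 of the 16 (at an unadjusted p under 0.05, 8 were higher and 3 lower in ETP, and 3 higher and 2 lower in QUE), and their medians were 0.19 and 0.06. Of all genes, 6.25% were called higher and 6.92% lower at ETP 3 µM, and 13.1% were higher and 14.5% lower at QUE 100 µM, so a count of 0 among 16 is little below the share of all genes in ETP.

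The receptor chains that signal for interleukin 13 were not called at MMS 300 µM or QUE 100 µM. IL13RA1 averaged 8.18 at MMS 300 µM and 8.22 at 1 µM (difference -0.05, adjusted p = 0.642), and IL4R averaged 7.01 and 7.11 (difference -0.10, adjusted p = 0.591). At QUE 100 µM IL13RA1 differed by -0.19 (adjusted p = 0.216) and IL4R by 0.03 (adjusted p = 0.913). Of the 14 measured genes of the interleukin 4 and 13 pathway, IRS1 alone was called at MMS 300 µM (-1.29, adjusted p = 2.06e-08), where 7.97% of all genes were lower. It encodes an adaptor of insulin and interleukin 4 receptors. At QUE 100 µM 2 were higher, IRS2 (1.25) and STAT3 (0.72), and 4 were lower. The lower ones were IRS1 (-2.44), the kinase gene JAK2 (-1.10), STAT6 (-0.99), the main transcription factor of the pathway, and its inhibitor SOCS3 (-0.95). At ETP 3 µM STAT3 alone was called (0.95). Of all genes 13.1% were higher and 14.5% lower at QUE 100 µM and 6.25% higher at ETP 3 µM, so the 2 and 1 higher of 14 are near the share of all genes.

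Among 30 measured NRF2 target genes, 12 were called higher and 0 lower at MMS 300 µM against 1 µM, with a median of 0.50, against 0.02 over all genes, of which 4.13% were higher and 7.97% lower. The largest differences were those of the aldo-keto reductase genes AKR1C1 (4.66, adjusted p = 1.88e-19), AKR1C2 (2.57) and AKR1B10 (1.92), and of the cystine transporter gene SLC7A11 (1.70). At QUE 100 µM, where 13.1% of all genes were higher and 14.5% lower, 7 of the 30 were higher and 0 lower, led by HMOX1, the haem oxygenase gene (2.52, adjusted p = 1.85e-06), and AKR1B10 (2.14). At ETP 3 µM 2 were higher, AKR1B10 (4.16) and ABCC3 (0.87), and 2 were lower, SLC7A11 (-1.93) and PIR (-0.95), counts near the shares of all genes there (6.25% higher and 6.92% lower). NMRAL1, the coding relative of NMRAL2P, averaged 6.61 at MMS 300 µM and 6.52 at 1 µM (adjusted p = 0.344), and was called lower at QUE 100 µM (-0.62, adjusted p = 0.00668).

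Of 21 measured genes of the MYC network and its targets, 1 was called higher (ODC1, for ornithine decarboxylase, 0.61) and 1 lower (MXI1, -0.59) at MMS 300 µM against 1 µM. At QUE 100 µM MYC was called higher (0.78, adjusted p = 5.30e-04) together with CCND2 (1.09), and MXD3 (-0.70) and MLXIP (-0.78) were lower. At ETP 3 µM MXD4 was higher (0.89) and MXD3 lower (-0.74). These counts among 21 are near or below the shares of all genes, which were 4.13% higher and 7.97% lower at MMS 300 µM, 13.1% and 14.5% at QUE 100 µM, and 6.25% and 6.92% at ETP 3 µM. Endothelial markers are given because MYCT1 is known from those cells. Of the 8 measured, limma called 0 higher at MMS 300 µM, ETP 3 µM or QUE 100 µM (at an unadjusted p under 0.05, 1, 0 and 0 were higher). With 4.13%, 6.25% and 13.1% of all genes higher there, 0 of 8 is near the share of all genes. ECSCR was lower at MMS 300 µM (-0.99, adjusted p = 9.43e-07) and at QUE 100 µM (-1.27, adjusted p = 4.77e-04), where ROBO4 was lower as well.

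Over the 21 differences of dose groups from their vehicle, MYCT1 and IL13RA2 correlated at 0.92, IL13RA2 and NMRAL2P at 0.90, and MYCT1 and NMRAL2P at 0.81. SPANXC correlated with IL13RA2 at 0.63, with MYCT1 at 0.59 and with NMRAL2P at 0.44. Without MMS 500 µM the SPANXC values were 0.38, 0.15 and 0.17, and the other pairs were at 0.90, 0.86 and 0.78. These are descriptions, since the 21 points share 3 vehicle groups and their arrays.

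**Figure D4:**
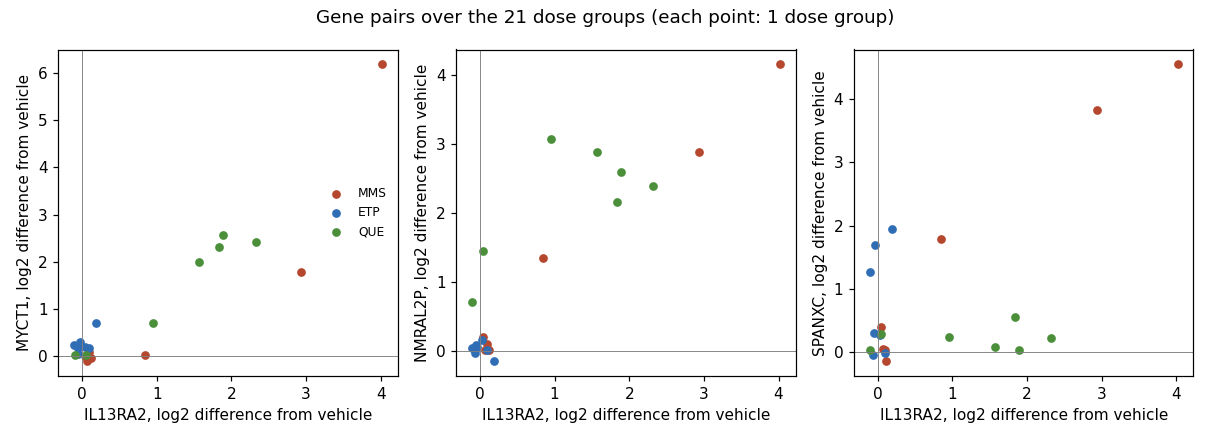
Difference from the vehicle mean (log2) of MYCT1, NMRAL2P and SPANXC (vertical axes) against that of IL13RA2 (horizontal axes), 1 point per dose group, coloured by chemical. MYCT1 and NMRAL2P are high in both MMS and QUE groups where IL13RA2 is high, while SPANXC stays at or under 0.55 in every QUE group.

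The genes with the pattern most like each of the 4 were ranked by Pearson correlation over the same 21 differences. These include MMS 500 µM, by which the 4 genes were chosen, so the ranking is a description. Without MMS 500 µM the correlations of the genes named here ran from 0.938 (TALDO1) to 0.983 (UBE2A). A correlation takes no account of size, as SNX19 differed by 0.92 at MMS 500 µM and MYCT1 by 6.19. Most like MYCT1 were SNX19 (0.987), a sorting nexin gene, SMCR8 (0.983), an autophagy regulator, and ZFAND2A (0.981), a stress-induced zinc finger gene that differed by 3.81 at MMS 500 µM. Most like SPANXC were MRPS11 (0.976), for a mitochondrial ribosomal protein, UBE2A (0.976), a ubiquitin-conjugating enzyme, and DESI1 (0.963), a SUMO protease. Most like IL13RA2 were ALAS1 (0.982), the first enzyme of haem synthesis, ATP6V0B (0.977), a proton pump subunit, and WDCP (0.968). Most like NMRAL2P were UGDH (0.984), which makes UDP-glucuronate, the RNA helicase gene DDX10 (0.963) and TALDO1 (0.953), for transaldolase. UGDH and TALDO1 are also on the NRF2 list. UGDH was called higher at MMS 300 µM against 1 µM (0.85, adjusted p = 1.07e-06) and at QUE 100 µM (0.78, adjusted p = 5.24e-05), and differed by 0.01 at ETP 3 µM.

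Of the 16 nearest neighbours measured by a probe set with 1 symbol, 4 for each gene, SPANXB1 had the largest difference at MMS 500 µM (1.91). Beside MYCT1, SYNE1, for a nuclear envelope protein, lies 60.5 kb before it and was called higher at MMS 300 µM against 1 µM (0.70, adjusted p = 3.01e-04), but differed by -0.24 at QUE 100 µM, where MYCT1 differed by 2.42. On the other side MTRF1L, for a mitochondrial release factor, lies 240 kb after it. It was called higher at QUE 100 µM (0.73, adjusted p = 1.40e-07) and differed by 0.93 at MMS 500 µM from the vehicle, but by 0.11 at MMS 300 µM against 1 µM (adjusted p = 0.366). FBXO5 differed by -0.64 at MMS 500 µM and ESR1 by -0.08. Around SPANXC, LDOC1 (64.3 kb away) differed by -0.13, MAGEC2 (960 kb) by 0.12 and UBE2NL (2642 kb) by -0.05 at MMS 500 µM from the vehicle. SPANXA1 lies nearer to SPANXC than MAGEC2 does, but has no kept probe set of its own and was not counted. The probe set listed for SPANXA1 and SPANXA2 differed by 5.12 at MMS 500 µM, which cannot be assigned to 1 gene. Around IL13RA2, LRCH2 (93.0 kb away) differed by -0.74 and PLS3 (544 kb) by -0.53. Farther off, ALG13 (3243 kb) differed by -0.62 and CHRDL1 (4208 kb) by -0.21, the last with both means under 4. Beside NMRAL2P, TRA2B, for a splicing factor, differed by -0.54, IGF2BP2 by -0.79, ETV5 by -0.18 and DGKG by 0.48, the last with both means under 4.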

How the data were processed

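The deposited log2 values are probe set summaries of 145 Affymetrix perfect-match arrays, which the authors made with GCRMA and Partek, per the submitters' processing notes, with no versions or genome build given in the sources used here. Per the labels, biotin-labelled RNA was prepared with a 3' in vitro transcription kit. Array medians did not overlap between chemicals, and whether the chemicals were normalized together is not given in the sources used here, so no level is compared across chemicals.

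Groups and replicate numbers came from the sample titles, and 3 numbers with 2 arrays in a group were averaged, leaving 142 replicates. Of 54613 probe sets, 27102 had a log2 value of at least 4 in at least 5 arrays. Those with 1 symbol gave 12070 genes, each taken from its brightest probe set. Symbols come from the platform annotation, and coordinates and promoters from RefSeq (GRCh38.p14).

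Tests used limma 3.58.1 (lmFit and eBayes with a trend) run under R 4.3.3, with files read by data.table (1.17.8) and p-values Benjamini-Hochberg adjusted over all genes of a contrast. ETP and QUE doses were set against their vehicle, MMS doses against MMS 1 µM, and chemicals against each other. On simulated data with 200 changed genes among 12070, 88% to 98% of changes of 1 log2 unit were called. The simulated noise was independent between arrays, whereas same-numbered arrays deviated together at most doses, so these shares may not hold for the real data. Tables and figures were made with Python 3.11.15, numpy 2.4.6, pandas 2.3.3, biopython 1.88 and matplotlib 3.10.9.

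The members, gene lists and tests were chosen with earlier results of these data known. Named genes were the 4 members, their relatives, the 3 genes most correlated with each, up to 2 measured neighbours on each side, and up to 4 called genes of each list and contrast by size of difference. BMP2 was named after its value was seen. Same-numbered arrays deviated together (every correlation over 0.1) at all ETP doses, MMS 3 to 300 µM and QUE 1 to 30 µM. At QUE 60 to 100 µM the lowest was 0.0622. The tests reported did not take numbers as pairs at any dose, and the replicate number as a block was only an alternative. For SPANXC at ETP 3 µM the SE was 0.315 without the block and 0.149 with it. Alternatives were no filter, a stricter filter (log2 of at least 5), quantile normalization over the arrays of each fit and the mean of a gene's probe sets. Others were the replicate number as a block, no trend, the number 2 arrays included, 11 arrays with the title suffix nf left out, and each replicate left out.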

Additional observations from a re-analysis of the deposited data

Results flagged for a closer look

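Within groups, 9 of 96 sets of one gene in one group held an array far from the others by Dixon's criterion, and chance flags about 1 in 20. In QUE, the array with number 3 was the outlying one in 4 of them. It was lowest for NMRAL2P at 30 µM (5.16) and 100 µM (3.65) and for IL13RA2 at 80 µM (4.18), and highest for IL13RA2 at 3 µM (4.22). SPANXC in the QUE vehicle was highest in number 1 (5.75). In MMS, SPANXC was lowest in number 5 at 10 µM (4.16) and in number 4 at 30 µM (4.54), and MYCT1 in number 2 at 3 µM (2.20). In ETP, IL13RA2 at 0.03 µM was highest in number 3 (3.48).

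The response differed between chemicals by the test of the difference. MMS 300 µM exceeded ETP 3 µM by 1.20 for MYCT1, 1.82 for SPANXC, 2.67 for IL13RA2 and 3.01 for NMRAL2P, and exceeded QUE 100 µM by 3.54 for SPANXC. ETP 3 µM minus QUE 100 µM was 1.72 for SPANXC, -1.73 for MYCT1, -2.13 for IL13RA2 and -2.54 for NMRAL2P.

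Among the arrays not used, 4 of 8 values at the highest dose lay more than 1 log2 unit above the highest vehicle array of the chemical on the label. They were MYCT1 (6.60), IL13RA2 (7.21) and NMRAL2P (6.70) in ETP 3 µM number 2 and SPANXC (8.22) in QUE 100 µM number 2.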

How the results depend on the processing

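Of 92 tested differences of the 4 genes, 36 were called. Of these, 7 lost the call under at least 1 alternative, 4 others gained one, and 0 called differences changed sign. With the number 2 arrays included the calls between chemicals dropped to 4, against 9 without them, all lost ones being named in the report. The first dose above all vehicle arrays in QUE then became 100 µM for IL13RA2 (10 µM without them) and 80 µM for MYCT1 (30 µM without them), and SPANXC had none in ETP. With the replicate number as a block, 11 calls were made in MMS, against 10 without it, 14 in QUE, against 13, 4 in ETP as before and 9 between chemicals as before. Besides the calls of IL13RA2 given in the report the block changed no call. Leaving out each replicate gave 3 to 4 calls in ETP, 10 to 11 in MMS, 13 to 15 in QUE and 8 to 9 between chemicals. With the mean of both MYCT1 probe sets, the dim one included by construction, the MYCT1 difference was 4.12 at MMS 500 µM, 1.05 at MMS 300 µM against 1 µM and 1.14 to 1.58 at QUE 30 to 100 µM. Signals under log2 4 limit what can be said of MYCT1, IL13RA2 and NMRAL2P in vehicle cells.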
